A study of Sus scrofa domesticus with 28 samples.

Results

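The comparison described here set control skin of red Duroc pigs against a universal pig reference RNA on the same arrays. It rests on the 4 biopsies whose titles start with control, of 28 biopsies in the whole series. The other 24 are scars. Control skin came from juvenile male pigs of the red Duroc scar model, numbered 49 and 50, with 1 biopsy from the left and 1 from the right side of each animal. The design text adds that the males were castrated. On every array the biopsy RNA carried the dye Cy5, and the Zyagen Universal Pig Reference Total RNA, of unknown sex and age, carried Cy3. The 24 scars, used only at the end, came from the same 2 animals and form 10 groups, by an early, mid or late phase, by pressure treatment against sham, and by the label hyper against hypo. The question was which genes intact skin holds at a higher or lower level than a mixture of pig RNAs does. The tissues that make up the reference are not given in the sources used here.

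Skin is a layered organ. The epidermis is built of keratinocytes, which harden into a barrier, and it also holds melanocytes, which make pigment. The dermis beneath is collagen-rich matrix laid down by fibroblasts, and hair follicles, sebaceous glands and sweat glands reach through it towards the fat below. In a pig, sweat glands of the haired skin are mainly of the apocrine type.

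Each array held 43603 probes apart from controls. The scanner program flagged the Cy5 signal as well above background on 18076 to 24300 of them (41.5 to 55.7%), and Cy3 signal on 26252 to 29373 (60.2 to 67.4%). No probe kept was saturated, and the number of arrays limits the precision. Requiring that either channel be well above background on all 4 arrays left 19753 features, each a gene or a transcript accession represented by its brightest probe. Of these, 2700 carried a gene symbol. The values below are log2 ratios of control skin over reference, so that 1 unit is a 2-fold difference, and per-array values run in the order animal 50 left, animal 50 right, animal 49 left, animal 49 right. Errors after ± are moderated standard errors from the limma fit, which draw the spread of each feature towards that of features of like signal. They can be larger or smaller than the standard error of the 4 values alone. The p values are from limma with Benjamini-Hochberg adjustment over all 19753 features. No dye swap was made, so skin and Cy5 cannot be told apart. The reference is a single RNA whose own spread is not in the test. With 2 biopsies from each of 2 animals, p measures the spread between these arrays.

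Most keratinocyte genes measured were higher in control skin than in the reference, and most liver, skeletal muscle and digestive genes were lower. Both channels were well above background on all 4 arrays for 11943 features, and 2801 of these (23.5%) were higher and 2121 (17.8%) lower in control skin, with an adjusted p under 0.05 and at least a 2-fold difference. Of the 2166 such features with a symbol, 441 (20.4%) were higher and 419 (19.3%) lower. At least a 16-fold difference was seen for 96 of the higher and 127 of the lower features. The median log2 ratio over the 11943 features was 0.32, and the median standard deviation over the 4 arrays was 0.25. Over all 19753 features kept, 3202 (16.2%) were higher and 6750 (34.2%) lower. Of these lower calls, 2414 were of features well above background in the reference alone. Another 2215 were of features not measured in both channels on every array. The majority of lower calls over all features kept thus follows in large part from the filter, and is not a result about skin. In 4911 of the 4922 features called, all 4 arrays had the same sign. The split depended on how the signals were processed, and the alternative changed background correction and dye normalisation together. With the normexp background correction and loess in place of the processed signals, 1067 were higher and 2109 lower, and the median over all features was 0.08.

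A further 68 features were well above background only in the Cy5 channel, that is in skin. Another 2683 were so only in the Cy3 channel, that is in the reference. The lowest signal well above background was higher in Cy5 (40.5 to 89.2 units) than in Cy3 (12.7 to 30.6 units) on every array. The limit of detection thus differed between the channels, and its part in these unequal counts was not tested. For these 68 and 2683 features the ratio has no measured second side, and a bound is given. On each array the bound sets the measured channel against the other channel's own signal. Where that was lower than the lowest signal well above background in that channel, this lowest signal is used instead. The remaining 5059 features were measured in 1 channel on some arrays only.

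**Figure D1:**
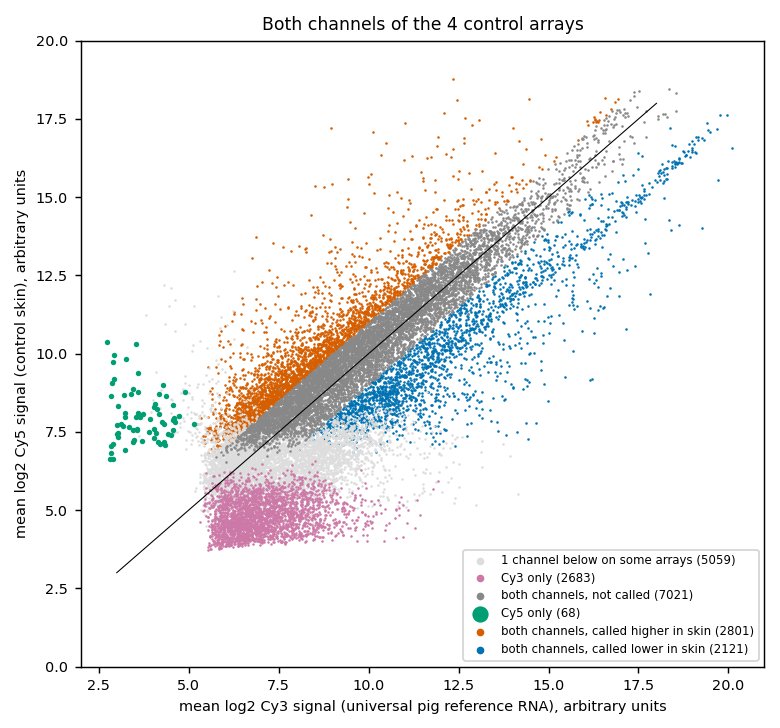
Mean log2 signal over the 4 control arrays in the Cy5 channel (control skin, vertical axis) and in the Cy3 channel (universal pig reference RNA, horizontal axis), both in arbitrary units, with 1 point per feature and a diagonal at equal signal. Colours mark the 2801 higher and 2121 lower features, the 7021 not called and the features with only 1 channel well above background, of which 68 had only Cy5 and 2683 only Cy3.

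Markers of 3 skin structures were checked first. KRT31 is a hair keratin of the hair shaft, PHEROC a subunit of pheromaxein, the steroid-binding protein known from boar saliva, and TYR the enzyme that starts melanin synthesis. KRT31 had log2 ratios of 4.51, 4.53, 4.48 and 4.91 (mean 4.61 ± 0.11, adjusted p = 1.26e-07). PHEROC had 6.31, 5.94, 5.79 and 6.05 (6.02 ± 0.11, adjusted p = 8.72e-08). TYR had 3.85, 3.79, 3.69 and 4.74 (4.02 ± 0.18, adjusted p = 1.04e-06). All 3 were above the reference in every biopsy, so hair, gland and pigment cell transcripts were all present in this skin.

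The gene with the highest ratio was LOC100158001, a locus without a name in the annotation used, at 7.46, 8.27, 8.63 and 8.62 (8.24 ± 0.19, adjusted p = 1.26e-07, 303-fold). Its 5 probes gave means of 6.10 to 8.24. Its Cy5 signal was 231668, 120795, 121534 and 154623 units, against Cy3 signals of 1320, 391, 307 and 392 units for the reference on the same arrays. LOC396866, also unnamed, followed at 6.86 ± 0.20. Secreted and gland proteins made up a group of the 15 highest named genes. They were CRISP3, a cysteine-rich protein of exocrine secretions (6.57 ± 0.15), PHEROC, the hormone relaxin RLN2 (5.25 ± 0.15), the secretoglobin SCGB1D1 (5.13 ± 0.12) and CA6, a secreted carbonic anhydrase of saliva (4.75 ± 0.15). Keratinocyte genes formed another group, with the desmosome plaque protein DSP (5.58 ± 0.13) and LGALS7, the galectin of stratified epithelia (5.22 ± 0.13). The keratin KRT3 (5.05 ± 0.14) was also among the 15 highest, but is not on the list of epidermal genes used below.

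The other genes among the 15 highest were CCL27, the chemokine by which keratinocytes attract skin-homing T cells (5.13 ± 0.10), the transcription factor TFAP2C (4.93 ± 0.18), the annexin ANXA8 (5.28 ± 0.17), the oligopeptide transporter SLC15A1, known from the intestine (4.99 ± 0.13), and the lysophosphatidic acid receptor LPAR2 (4.87 ± 0.23). For all 15 the adjusted p was between 8.72e-08 and 1.28e-06. SLC15A1 varied little between biopsies, with 4.92, 5.07, 5.04 and 4.91. LPAR2 is uncertain, since its other probe averaged -0.98.

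**Figure D2:**
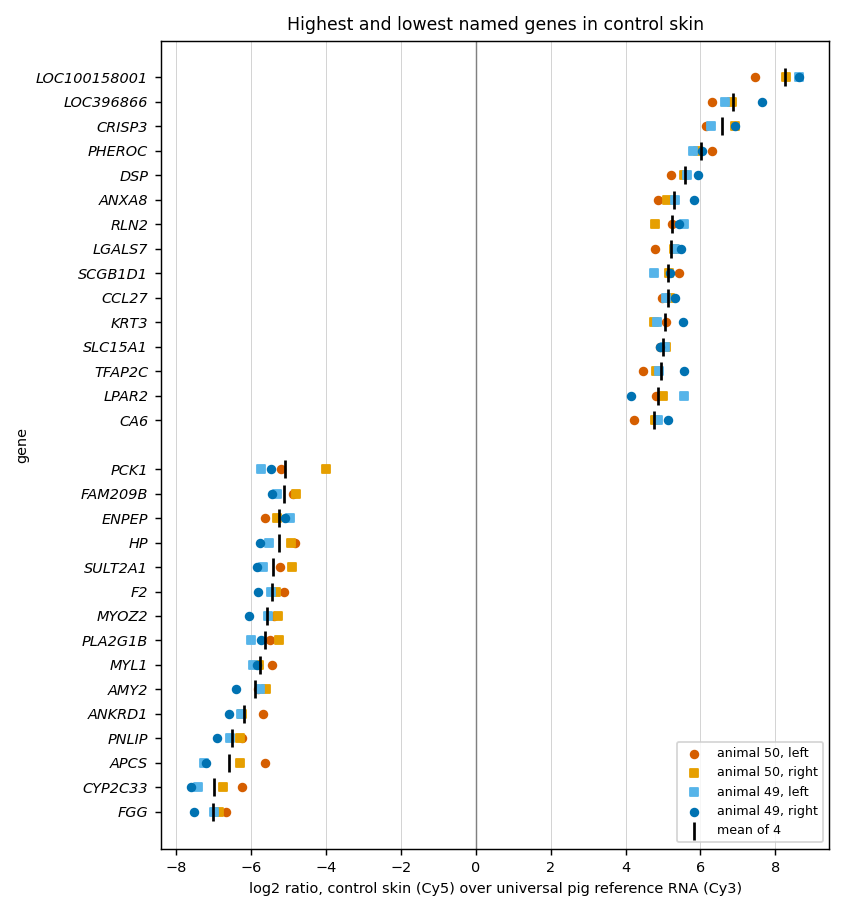
Log2 ratio of control skin (Cy5) over universal pig reference RNA (Cy3) for the 15 highest and 15 lowest named genes, with 1 point per biopsy, squares for the biopsies on the same slide and a bar at the mean of 4. The highest run from LOC100158001 (mean 8.24) to CA6 (4.75) and the lowest from PCK1 (-5.10) to FGG (-7.01). The 30 genes were chosen to have the same sign on all 4 arrays, so that no biopsy crosses 0.

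Epidermal genes were high together. The gene lists used here were chosen with earlier results of these data known, so their counts describe the tissue and are set beside the 20.4% higher and 19.3% lower of all features with a symbol. Of 21 epidermal keratinocyte and barrier genes measured in both channels, 19 were higher, 0 were lower and 2 did not pass, with a list median of 3.30 against 0.18 over all features with a symbol. Besides DSP and LGALS7, the largest were LY6G6D (4.14, 4.80, 5.08 and 4.92, mean 4.73 ± 0.16) and DAPL1, known from stratifying epithelium (4.62, 4.42, 4.28 and 5.15, mean 4.62 ± 0.15). The list members measured included genes of keratinocyte differentiation. The suprabasal keratin KRT2 had 4.10 ± 0.09, the cornified envelope precursor IVL 3.74 ± 0.12, the desmosomal cadherin DSG1 3.73 ± 0.14, the corneodesmosome protein CDSN 2.71 ± 0.14, and SFN, the 14-3-3 sigma protein of differentiating keratinocytes, 4.43 ± 0.10. The members that did not pass the fold threshold were KLF5 (0.82 ± 0.14) and EPCAM (-0.63 ± 0.17), an adhesion molecule of simple epithelia.

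Few hair genes could be measured. Of 38 genes in the hair follicle list 5 were on the array under a symbol, and 3 were measured in both channels, all higher, with a median of 2.93. They were KRT31, the WNT pathway transcription factor LEF1 (2.75 to 3.17, mean 2.93 ± 0.12) and the activin antagonist FST (1.41, 1.99, 1.62 and 1.35, mean 1.59 ± 0.14). LHX2, a transcription factor of hair follicle stem cells, averaged 1.64 ± 0.26, with 1 channel below background on some arrays.

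Gland genes split. In the list for sweat, apocrine and salivary-type glands, 8 of 13 genes measured in both channels were higher and 4 lower, with a median of 2.08. The higher ones included, beside PHEROC, RLN2, SCGB1D1 and CA6, the iron-binding defence protein LTF (3.57 ± 0.09), the mucosal chemokine CCL28 (2.94 ± 0.12), the pioneer factor FOXA1 (2.08 ± 0.19) and the water channel AQP5 (2.02 ± 0.19). The 4 lower ones were SAL1, the salivary lipocalin that binds boar pheromone (-2.55 ± 0.27), WFDC2, the sodium pump subunit ATP1B1 and the simple-epithelium keratin KRT8, the last at -1.01 by the brighter of 2 probes, of which the other averaged 2.09. SAL1 and PHEROC, both carriers of boar odour steroids, thus stood on opposite sides of the reference. SAL1 had -1.82, -1.85, -3.34 and -3.20, below the reference in all 4 biopsies.

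Lipid synthesis genes of the sebaceous gland were higher in 11 of 19 cases and lower in 0, with a median of 1.40. The fatty acid desaturase SCD led them (3.59, 3.32, 3.59 and 4.33, mean 3.71 ± 0.16, adjusted p = 8.97e-07). It was followed by the epidermal fatty acid carrier FABP5 (3.20 ± 0.16), the lipid droplet coat protein PLIN2 (2.53 ± 0.16) and the sterol sensor partner INSIG1, which varied least of these (2.08, 2.08, 2.13 and 2.15, mean 2.11 ± 0.09). The cholesterol and fatty acid enzymes FDPS, FASN, SQLE and ACLY lay between 1.32 and 1.56 and passed. The regulator SREBF1 (0.48) did not.

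In the melanocyte list 5 of 12 genes measured in both channels were higher and 0 lower, with a median of 0.88. The melanin enzyme TYRP1 was well above background in skin alone, at least 39.3-fold above the reference, the largest bound among genes seen in skin alone. Its Cy5 signals were 1106, 560, 601 and 1352 units. TYR was followed by RAB27A, which tethers melanosomes for transport (2.58, 1.68, 2.08 and 2.28, mean 2.15 ± 0.22), by DCT, the next enzyme of the pathway (1.39, 2.09, 2.30 and 1.85, mean 1.91 ± 0.19), and by the endothelin receptor EDNRB (1.52 ± 0.16). The master regulator MITF averaged 0.96 ± 0.15 and the receptor MC1R 0.80 ± 0.16, both under 2-fold. KIT, the receptor of melanoblasts and of mast cells, averaged -0.87 ± 0.13. With normexp and loess 1 of the 12 was higher and 1 lower.

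Dermal matrix genes were higher in 13 of 22 cases and lower in 0, with a median of 1.33. POSTN, a matricellular protein, led (3.58, 4.70, 4.73 and 4.46, mean 4.37 ± 0.19, adjusted p = 8.87e-07). COL1A2, a chain of type I collagen, had 1.49, 3.46, 3.85 and 2.77 (2.90 ± 0.34, adjusted p = 1.29e-04). The small proteoglycan ASPN had 1.31, 3.62, 3.69 and 2.25 (2.72 ± 0.40), and the related LUM 1.18, 2.37, 2.73 and 2.27 (2.14 ± 0.23). In COL1A2, ASPN and LUM the left biopsy of animal 50 was the lowest. ASPN did not pass with normexp without the cap on local background.

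Of 10 fibroblast genes 4 were higher and 2 lower, with a median of 0.74. PI16, known from fibroblasts around vessels and fascia, averaged 2.44 ± 0.31, the chemokine CXCL14 1.94 ± 0.10 and the retinoic acid carrier CRABP1 1.91 ± 0.16. DPP4, a surface peptidase used as a fibroblast marker and also abundant in gut and kidney, was lower (-2.63, -2.44, -2.55 and -3.06, mean -2.67 ± 0.12). Adipocyte genes were higher in 9 of 16 cases and lower in 3, with a median of 1.29. The fatty acid carrier FABP4 had 4.02, 4.27, 3.89 and 4.76 (4.24 ± 0.15). The hormone ADIPOQ averaged 3.44 ± 0.29, and the lipid droplet protein PLIN1 was at least 12.2-fold above the reference. The 3 lower members were RBP4 (-4.03 ± 0.24), PCK1 (-5.10 ± 0.26) and GPD1 (-1.72), and the first 2 of these are also on the liver list.

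Transcription factors of skin were higher in 7 of 11 cases, with 1 lower and a median of 2.33. GATA3, needed for hair and epidermis, had 3.12, 3.46, 3.29 and 3.41 (3.32 ± 0.10), TFAP2B, of the same family as TFAP2C, averaged 2.69 ± 0.18 and the LIM-only cofactor LMO1 2.33 ± 0.11. SOX9, a factor of hair follicle stem cells, was well above background in skin alone on all 4 arrays. TBX3 was lower (-1.73 ± 0.19), although 1 of its 3 probes had the other sign. In the list of chemokines, S100 proteins and defence genes 8 of 20 were higher and 2 lower, with a median of 0.55. S100A14 led after CCL27 (2.89, 2.64, 2.73 and 2.72, mean 2.74 ± 0.09), and the cytokine IL1A, stored in keratinocytes, averaged 1.77 ± 0.19. The inflammatory chemokine CXCL8 was well above background in the reference alone.

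**Figure D3:**
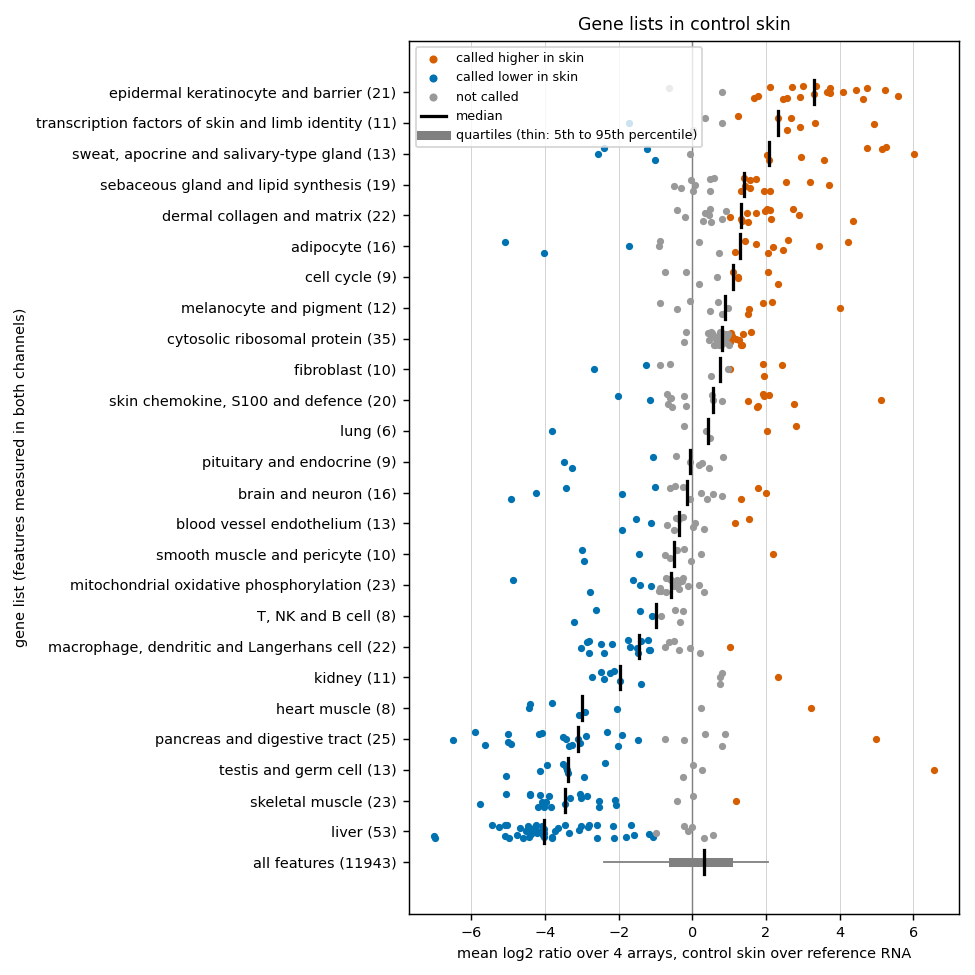
Mean log2 ratio of control skin over reference RNA (horizontal axis) for the members measured in both channels of each gene list with at least 6 such members, with the number of members in brackets, colours for the call and a black bar at the list median. The bottom row gives the same over all 11943 features, and the list medians run from 3.30 (epidermal) to -4.03 (liver).

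Blood vessel, muscle coat and immune genes were mostly near or below the reference. Of 13 endothelial genes 2 were higher and 3 lower, with a median of -0.36. The claudin CLDN5 averaged 1.15 ± 0.23 and EDN1 1.52, and 0 of the 13 were higher with normexp and loess. The adhesion molecules VCAM1 (-1.90 ± 0.25), ICAM1 (-1.54 ± 0.21) and SELP (-1.12) were lower. SELE, the selectin of activated and skin vessels, was well above background in skin on all 4 arrays and in the reference on 1 of 4, so its ratio is not given as a measured size. The lymphatic factor PROX1 was well above background in the reference alone, which was at least 12.3-fold above skin.

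Among smooth muscle and pericyte genes RGS5, the pericyte regulator, was the single one higher (2.02, 2.18, 2.31 and 2.28, mean 2.20 ± 0.10), and 3 of 10 were lower, led by the muscle filament DES (-3.00 ± 0.16) and TPM1 (-2.95 ± 0.15). The list median of -0.51 turned to 0.23 without dye normalisation.

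In the list for macrophages, dendritic and Langerhans cells 15 of 22 genes were lower and 1 higher, with a median of -1.44. The integrin chain ITGB2 had -3.10, -2.70, -2.97 and -3.35 (-3.03 ± 0.12), AIF1 averaged -2.81 ± 0.09 and the scavenger receptor CD163 -2.86 ± 0.32. The complement genes C1QA, C1QB and C1QC lay between -2.49 and -2.19. CD207, the langerin of Langerhans cells, averaged 1.51 ± 0.26 (adjusted p = 0.00105), with 1.66, 1.75, 1.87 and 0.76, and was in both channels well above background on 3 of 4 arrays. Among T, NK and B cell genes 4 of 8 were lower and 0 higher, with a median of -0.98. Another 6 members, such as CD3D and CD2, were well above background in the reference alone. In bulk RNA such as this, fewer cells of a type and less RNA per cell cannot be told apart.

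Genes of liver, muscle, testis and the digestive tract were mostly below the reference. Of 53 liver genes measured in both channels 47 were lower and 0 higher, with a median of -4.03. The fibrinogen chain FGG was the lowest of all named genes, at -6.67, -6.86, -6.99 and -7.52 (-7.01 ± 0.14, adjusted p = 9.16e-08). Its Cy5 signals were 764, 629, 703 and 355 units, against Cy3 signals of 77510, 73288, 89680 and 65133 units for the reference. The cytochrome CYP2C33 had -6.24, -6.74, -7.42 and -7.59 (-7.00 ± 0.21), by the lowest of its 6 probes, which reached up to -2.88. The pentraxin APCS had -5.63, -6.30, -7.24 and -7.20 (-6.59 ± 0.26). In CYP2C33 and APCS, animal 50 lay closer to the reference than animal 49, without passing the test between animals. Prothrombin F2 (-5.44 ± 0.13), the sulfotransferase SULT2A1 (-5.41 ± 0.16) and haptoglobin HP (-5.26 ± 0.18) were also among the 15 lowest.

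Digestive enzymes came next. Of 25 genes of pancreas and digestive tract 19 were lower and 1 higher, with a median of -3.10. Pancreatic lipase PNLIP had -6.25, -6.30, -6.56 and -6.90 (-6.50 ± 0.13), amylase AMY2 averaged -5.90 ± 0.15 over the probe used, with its 22 probes between -6.45 and -4.25, and the phospholipase PLA2G1B averaged -5.62 ± 0.13. The single member higher was the peptide transporter SLC15A1.

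Muscle genes were low as well. Of 23 skeletal muscle genes 20 were lower and 1 higher, with a median of -3.47, led by the myosin light chains MYL1 (-5.43, -5.79, -5.95 and -5.84, mean -5.75 ± 0.12) and MYL2 (-5.06 ± 0.21). Of 8 heart genes 6 were lower. Among them were the troponin TNNI3 (-4.43 ± 0.15) and sarcolipin SLN (-3.81 ± 0.13). The cardiac repeat protein ANKRD1 (-6.19 ± 0.14) and the Z-disc protein MYOZ2 (-5.56 ± 0.14) were among the 15 lowest of all. The 11 probes of MYOZ2 lay between -8.20 and -2.67. The 4 biopsies thus carried low amounts of muscle transcripts relative to the reference.

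For testis 9 of 13 genes were lower and 1 higher, with a median of -3.37. The higher one was CRISP3. For kidney 7 of 11 were lower and 1 higher (AQP3, the glycerol channel also known from epidermis, 2.33 ± 0.09), with a median of -1.95. The one higher member of the skeletal muscle list was carbonic anhydrase CA3 (1.19 ± 0.18), and 0 were higher with normexp and loess or without the right biopsy of animal 50. The one higher member of the heart list was the gap junction protein GJA1 (3.22 ± 0.16), which keratinocytes also make.

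Brain genes were mixed, with 3 of 16 higher and 5 lower and a median of -0.15. The myelin protein MBP (-4.26 ± 0.13) and the peptide CCK (-4.93 ± 0.20) were lower, and prodynorphin PDYN (1.99 ± 0.26) and the neurotrophin BDNF (1.78 ± 0.26) were higher. The 8 probes of MBP lay between -5.39 and -0.57. With normexp and loess 0 of the 16 were higher. Endocrine genes were lower in 3 of 9 cases, among them insulin INS (-3.48 ± 0.14), with a median of -0.06, and the median of both lists changed sign in at least 1 of the scalings tried. Of 6 lung genes 2 were higher, HOPX and AQP5, and the surfactant gene SFTPC was lower (-3.81 ± 0.11). In the list for red cells and platelets 1 of 3 genes, ITGB3, was lower (-2.02 ± 0.20), by the brighter of 2 probes, of which the other averaged -0.13. Its Cy3 signals of 583470 to 799867 units were among the brightest of the reference, a group described at the end.

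Genes seen in the reference alone completed this side. The largest bounds were those of the paraoxonase PON1, at least 53.6-fold above skin, PLA2G12B (47.4-fold), the sperm flagellum gene SPAG6 (42.7-fold) and the lipid transfer protein MTTP (39.6-fold). The stomach gene GKN1 (33.7-fold), clotting factor F9 (29.7-fold) and the calcium buffer CALB1 (19.0-fold) followed. In the other direction, the genes seen in skin alone included, beside TYRP1, PLIN1 and SOX9, HSBP1L1 (at least 27.4-fold in skin), the tight junction claudins CLDN17 (14.9-fold) and CLDN23 (13.5-fold), DUOXA1, which matures a dual oxidase (9.68-fold), and the retinoic acid carrier CRABP2 (9.35-fold).

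Lists for ribosomes, mitochondria and the cell cycle were also read. Of 35 cytosolic ribosomal protein genes 9 were higher and 0 lower, and 32 were above 0 on all 4 arrays, with a median of 0.80. RPS12 had 2.04, 1.48, 1.37 and 1.48 (1.59 ± 0.16) and RPL3 averaged 1.37 ± 0.10. Without dye normalisation 34 of 35 passed, with a median of 2.04. Of 23 genes of mitochondrial oxidative phosphorylation 0 were higher and 5 lower, with a median of -0.57, which turned to 0.20 without dye normalisation. The lowest were COX8H (-4.43, -4.72, -4.71 and -5.68, mean -4.88 ± 0.19) and COX7A1 (-2.78 ± 0.13), subunits of cytochrome c oxidase of the muscle type. Of 9 cell cycle genes 5 were higher and 0 lower, with a median of 1.11, led by the kinase CDK4 (2.33 ± 0.14), the replication helicase subunit MCM3 (2.06 ± 0.25) and the topoisomerase TOP2A (1.23 ± 0.18). With normexp and loess 1 of the 9 passed.

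The 4 biopsies were alike in the main, and dermal matrix and endothelial genes differed together between them. Over the 11943 features the correlation of log2 ratios between pairs of arrays, across features that are not independent, was 0.911 to 0.967. The highest was between the left biopsy of animal 49 and the right biopsy of animal 50, which shared a slide. The lowest was between both biopsies of animal 50. The list medians for dermal matrix were 0.47, 1.62, 1.81 and 1.24, so that the left biopsy of animal 50 was lowest and the pair on 1 slide highest. In 21 of 22 dermal matrix genes both arrays of that slide lay above both others, against 30.8% of all features and 23.0% of those with a symbol. The same held for 12 of 13 endothelial genes and 16 of 22 genes of macrophages, dendritic and Langerhans cells. It held for 3 of 21 epidermal genes and 0 of 35 ribosomal genes, of which 23 were lower on both arrays of that slide, against 22.7% of all features lower there. It held for 2 of 10 smooth muscle and pericyte genes, 2 of 16 adipocyte genes and 1 of 8 T, NK and B cell genes, and 6 of 9 cell cycle genes were lower on both arrays.

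Endothelial list medians were -0.93, 0.16, 0.10 and -0.52. CDH5, the cadherin of endothelial junctions, had -1.43, 0.16, 0.10 and -0.27. Decorin DCN of the matrix had 0.04, 1.70, 1.61 and 0.69, and SPARC 0.45, 2.16, 2.10 and 1.20. These genes thus ordered the biopsies alike. Epidermal medians were 3.13, 3.05, 3.43 and 3.32, a narrower range. The 10 spike-in RNAs added in known ratios also differed between arrays, by a median of 0.25, -0.25, -0.11 and 0.10 from their mean over arrays, so that the shared slide was lower for the spike-ins and higher for the dermal genes. The part of slide, biopsy depth or spike-in amounts in these differences was not tested. All 4922 features called had the same direction in the mean of the 2 arrays of that slide and in the mean of the other 2. They had been called from the mean of these same arrays, so that the shared direction follows largely from their selection. It is a description and not a separate check of the slide.

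**Figure D4:**
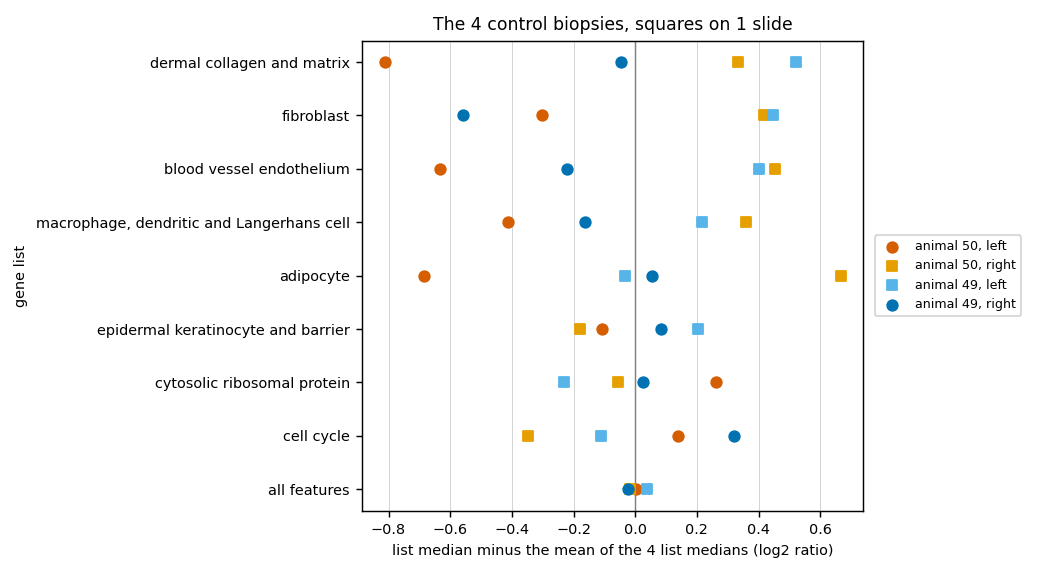
Median log2 ratio of each gene list on each control array, minus the mean of the 4 list medians (horizontal axis), with 1 point per biopsy and squares for the biopsies that shared a slide. Dermal, fibroblast, endothelial and macrophage lists have both squares on the right, and the left biopsy of animal 50 has the lowest dermal, endothelial, macrophage and adipocyte medians.

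Single genes outside the naming rule, chosen after their values were seen as those of largest standard deviation, varied more. TNMD, a tendon and fascia glycoprotein, had 0.69, 3.90, 4.44 and 3.12, lowest in the left biopsy of animal 50. S100A9, a subunit of the alarmin calprotectin, had -0.56, -1.11, -2.18 and 1.19, and its partner S100A8 had 0.85, 0.53, -0.42 and 2.26. The right biopsy of animal 49 was highest in both. LSM2 had 0.14, -0.28, -0.28 and 4.35, so that the same biopsy stood apart.

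Animals 50 and 49 were compared next. Of 19753 features 2 (0.0101%) passed, and 270 had an unadjusted p under 0.05. Both are transcript accessions without a symbol, TC536725 and TC539560, and were picked because they passed. With left before right, TC536725 had -3.55 and -3.85 in animal 50, against 0.70 and 0.80 in animal 49, a difference of -4.44 ± 0.23 (limma adjusted p = 0.00184). TC539560 had -3.36 and -3.98 in animal 50, against 0.86 and 0.69 in animal 49 (-4.44 ± 0.34, adjusted p = 0.0174). With side as a block, or without a mean-variance trend, 0 passed. The difference between the shared slide and the other arrays is part of the residual in this comparison. A low count of passing features thus does not show that the animals are alike.

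The scars of the same animals gave other biopsies for this difference, a check added after the data were seen. TC536725 lay between -4.31 and -3.15 in 12 scars of animal 50, against -0.16 to 0.81 in 12 scars of animal 49 (-4.06 ± 0.08, limma adjusted p = 1.05e-15). TC539560 lay between -5.24 and -2.14 in scars of animal 50, against -0.13 to 0.84 in scars of animal 49 (adjusted p = 1.64e-08). Its Cy5 signal was well above background on 2 of 12 scars of animal 50 and on 12 of 12 of animal 49, so the size of its difference is not measured on the low side. On the control arrays it was well above background on 3 of 4. In this comparison 57 of 19753 features (0.289%) passed. The scar values of the 2 animals did not overlap for either transcript, and the share of all features without such overlap was not counted.

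SAL1, the named gene of lowest p between animals, was higher in animal 50 by 1.44 ± 0.21 but missed the threshold (adjusted p = 0.801), and in scars its difference was 0.04 ± 0.21. CYP3A29 and CYP3A46, liver-type cytochromes, differed by 1.19 and 1.43 in the same direction and did not pass either. FUT2, a fucosyltransferase, was lower in animal 50 by its values (-3.22 ± 0.57), did not pass, and was well above background in skin on 2 of 4 arrays.

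No feature passed between left and right skin (0 of 19753, with 208 at an unadjusted p under 0.05 by limma). The count was 0 also without the mean-variance trend or without animal as a block. With animal as a term, the only residual of a feature is the difference between the shared slide and the other arrays. A slide difference thus counts as error, so this test cannot show that the sides are alike. The 6 named genes of lowest p were UCP3, LIPE, ALDOC, FABP3, PC and KAT7, and all 6 had lower means on the left. KAT7 was well above background in skin on 1 of 4 arrays, and the 2 probes of PC had opposite signs. The uncoupling protein UCP3 had 1.84 (animal 50) and 1.07 (animal 49) on the left, against 2.88 and 2.09 on the right. The hormone-sensitive lipase LIPE averaged 1.57 on the left, against 2.55 on the right, by the brightest of 3 probes, of which 1 had the other sign against the reference. ALDOC, FABP3 and PC had left minus right differences of -0.88 ± 0.28, -1.03 ± 0.30 and -1.12 ± 0.31. The adjusted p was 0.9999 for the lowest of all features, so these are values and not calls.

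In the scars, the 15 highest and 15 lowest genes of control skin were read on the same scale. Since they were chosen on the same 4 control arrays that serve here as the baseline, their counts are a description. Of the 15 highest, 8 were lower in scars and 0 higher, where 16.5% of 19748 features were lower and 23.8% higher. Of the 15 lowest, 4 were higher in scars and 0 lower, but normexp and loess gave 9 and leaving out 1 control array gave 2 to 3. CRISP3 had a median of -1.92 in 23 scars with a value, against 6.14 to 6.93 in control skin (limma adjusted p = 3.21e-06). LOC100158001 had a scar median of 0.55 with a range of -0.12 to 9.23, against 7.46 to 8.63 in control skin. SLC15A1 had a scar median of -0.27 with a range of -1.55 to 2.41, against 4.91 to 5.07 in control skin (adjusted p = 3.86e-07). Each of these 3 genes was well above background in Cy5 on 3 scar arrays, so the size of its fall is not measured in the others.

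CCL27, LGALS7, KRT3, TFAP2C and LOC396866 had scar medians of 5.03 to 6.80 and did not pass (adjusted p = 0.605 to 0.855), and neither did DSP (adjusted p = 0.0819) or LPAR2 (adjusted p = 0.162). The difference of KRT3 was 0.29 ± 0.60. Among the lowest genes, ENPEP, an aminopeptidase of kidney and gut (adjusted p = 0.00404), and FAM209B (1.05 ± 0.29) were higher in scars. So were PLA2G1B and SULT2A1, which missed the threshold when any 1 of 3 (PLA2G1B) or of 4 (SULT2A1) control arrays was left out. On each of the 3 slides that held control skin and scars, all 8 lower and all 4 higher genes kept their direction. These genes had passed in a fit that included the same arrays, so this is a description and not a separate check.

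**Figure D5:**
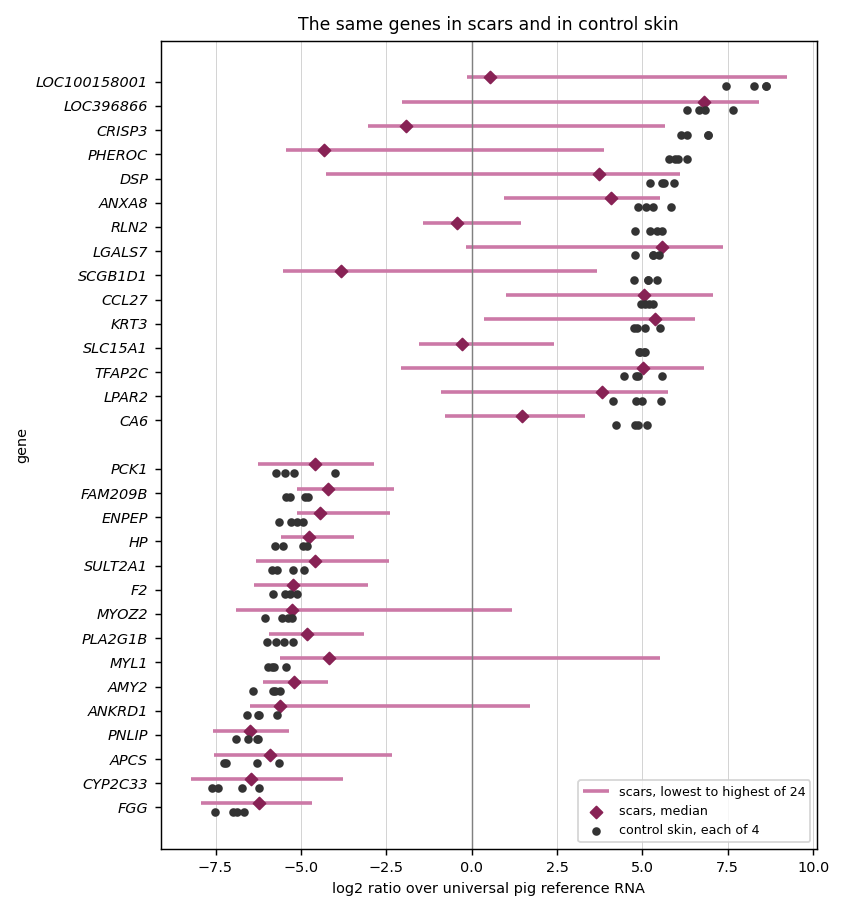
Log2 ratio over universal pig reference RNA of the 15 highest and 15 lowest genes of control skin in scars (line from the lowest to the highest of the scars with a value, diamond at the median) and in the 4 control biopsies (black points). Scar medians of PHEROC, SCGB1D1 and CRISP3 lie below 0, at -4.33, -3.83 and -1.92, and those of LOC396866, LGALS7, KRT3, CCL27 and TFAP2C at 5.03 or above. Cy5 was well above background on 5 scar arrays for PHEROC, 5 for SCGB1D1 and 3 for CRISP3, so the sizes of these 3 medians are not measured.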

How the data were processed

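The scanner files deposited for each 2-colour array give spot intensity on a linear scale, both raw and processed. Processing subtracted background and normalised dyes in Feature Extraction 10.7.1.1, per the file headers. The deposited scanner files also hold the ratio of Cy5 to Cy3 as log10, and the authors deposited a value table in log2 units. That table equalled the log2 ratio of the processed signals within 0.001 for 99.97 to 99.99% of probes, with medians of 0.13 to 0.26 per control array, so its scale, direction and lack of centring are known, and further steps were not stated. The scanner's flags, columns of 0 and 1, were used for filters.

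Outlier spots were treated as missing, and spots of a probe were averaged. Probe accessions were matched to RefSeq transcripts of Sscrofa11.1, which named 6924 of 43603 probes (3216 genes). The brightest probe stood for a gene. limma 3.58.1 (R 4.3.3) fitted the mean log2 ratio of the 4 control arrays against 0, with a trended eBayes, and likewise animal 50 against 49, left against right with animal as a term, and 10 scar group means against control skin with animal as a term. Of the 19753 features 5 could not be fitted in scars because all values of a group were missing. A call needed an adjusted p under 0.05, and in the comparison with the reference also 2-fold. The fits were tested on simulated data.

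The members and the 27 gene lists were chosen with earlier results of these data known. Named genes included the 15 highest and 15 lowest called, measured in both channels and of the same sign on all 4 arrays. Others were up to 10 of largest bound per direction, up to 4 of largest ratio per list, and KRT31, PHEROC and TYR. The rest were 6 of lowest p for animal and for side, and other members of a list where a range or count is given. Biopsies were paired by animal, as the titles number the animals. Alternatives covered background, centring, dye normalisation, filters, probes, test, blocks and each array left out. The scanner's own log10 ratio and the animal difference in scars were added after seeing the data.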

Additional observations from a re-analysis of the deposited data

Results flagged for a closer look

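With 4 arrays a single value can lie far from the other 3, and chance alone gives such a gap in about 5% of groups. Among the 144 named genes 6 had one. CLDN17 was low in the right biopsy of animal 49 (3.61, against 5.66 to 6.05 in the others) and PLIN1 was low in the left biopsy of animal 50 (3.45, against 4.71 to 4.81), both in genes with a bound only. KRT31 (4.91) and TYR (4.74) were high in the right biopsy of animal 49. RPS12 (2.04) and SDHB (-1.39) were high in the left biopsy of animal 50. None of these changed a call.

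The difference between animals in TC536725 (-4.44) and TC539560 (-4.44) stood out because the test of animal 50 against animal 49 passed for these 2 features alone.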

How the results depend on the processing

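In the comparison with the reference, normexp and loess gave 1067 higher features measured in both channels with a cap on local background and 964 without it, and over all features kept 1178 higher and 3568 lower with the cap and 1051 and 3225 without it, against 3202 and 6750. Counts over all features kept include features without a measured second side. A test against a minimum of 2-fold gave 1486 higher and 1642 lower (47.5% of calls higher), and 1704 and 4751 over all features kept. Median centring gave 3485 higher and 1898 lower, that is 64.7% of calls higher against 56.9%. Using animal as a replicate block gave 2801 higher and 2123 lower. Leaving out 1 array gave 2779 to 2904 higher and 2074 to 2180 lower. Of 141 named genes called, 111 stayed called in the same direction under every alternative that gave a value, and 0 reversed. In the comparison of animals, 0 features passed without the trend and 0 with side as a replicate block, and leaving out 1 array gave 2 to 60, with 60 without the left and 48 without the right biopsy of animal 50, and 20 without the left biopsy of animal 49. With side, 0 passed under each alternative run, and leaving out arrays was not run, because no residual degrees of freedom remain. In scars, normexp called 9 of the 15 lowest genes higher in place of 4, and leaving out 1 control array gave 2 to 3. Slide as a random block was not run because its correlation could not be estimated. Signal over background limits the 7810 features measured in 1 channel or on some arrays.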

Other observations

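A group of features had a nearly fixed ratio at the brightest reference signals. It was noticed in the plot of both channels and its limits were set after the values were seen. Of 314 features measured in both channels with a mean log2 Cy3 signal above 16, 208 were lower in skin, with a median of -2.48 and quartiles of -2.70 and -2.31. Between -2.8 and -2.1 lay 64.9% of these 208, against 23.5% of the 1913 lower features of weaker Cy3 signal. Of the 135 features in that band 11 had a symbol, and they name unlike proteins. Among them were MUC13, a mucin of the gut (-2.33), the vitamin D hydroxylase CYP24A1 (-2.14), the caspase CASP10 (-2.24), the interferon receptor chain IFNAR2 (-2.32) and the mitochondrial mutase MUT (-2.33). The 4 arrays of MUC13 had -2.22, -1.85, -2.53 and -2.71, and those of MUT -2.26, -1.94, -2.43 and -2.68, so that both genes ordered the arrays alike. CYP24A1 is in the kidney list, MUC13 in the digestive list and ACTA1 in the skeletal muscle list. Other probes of MUC13 reached -3.68 and the other probe of MUT -1.18. ITGB3, with -1.77, -1.63, -2.23 and -2.45, lay outside the band and ordered the arrays in the same way. Probe sequences were not used here, so whether these probes read the named genes alone was not tested. The ratios printed for MUC13, CYP24A1, CASP10, IFNAR2, MUT and ITGB3 carry that limit, as does the call of ACTA1.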
